A study of Arabidopsis thaliana with 18 samples.

Results

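The 10 photoreceptor genes of Arabidopsis thaliana described here are the 5 phytochromes PHYA (AT1G09570), PHYB (AT2G18790), PHYC (AT5G35840), PHYD (AT4G16250) and PHYE (AT4G18130), the cryptochromes CRY1 (AT4G08920) and CRY2 (AT1G04400), the phototropins PHOT1 (AT3G45780) and PHOT2 (AT5G58140), and the UV-B receptor UVR8 (AT5G63860). They were chosen by locus identifier, and all 10 were found among the 33602 genes of the table. RNA was sequenced from seedlings of the Columbia background on day 7, labelled 29 °C or 22 °C. The genotypes were a BBX18-/-BBX23-/- double mutant (called bbx18 bbx23 here), a PIF4-/- mutant (pif4) and wild type (WT), giving 6 groups of 3 libraries. BBX18 and BBX23 belong to the B-box zinc finger family, many of whose members act in light signalling, and PIF4 is a transcription factor through which warmth makes the hypocotyl longer. The sources used here do not give the mutant alleles, the light regime, the hour of sampling or the time spent at 29 °C.

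Plants read the colour, direction and intensity of light through these receptors. Phytochromes carry a bilin and switch between a red-absorbing and a far-red-absorbing form. The far-red-absorbing form acts in the nucleus, where it brings about the loss of PIF proteins such as PIF4, and it reverts to the inactive form faster in the warm, so that PHYB is also known as a temperature sensor. Cryptochromes bind a flavin, absorb blue light and hold back elongation, partly by inhibiting the COP1 ubiquitin ligase. Phototropins are blue-light-activated kinases of the plasma membrane that steer bending, chloroplast movement and stomatal opening. UVR8 is a dimer that falls apart in UV-B and then binds COP1.

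The families are paralogs, so their values rest on reads being assigned to the right copy. The 45-base stretches of coding sequence around the codon of the light-sensing cysteine are shown for this reason, since they hold the site where each protein senses light and let the copies be compared there. The capitals mark that codon. In the phytochromes the cysteine holds the bilin, and in the phototropins it forms the light-driven bond to the flavin of each of the 2 LOV domains. The sequences are those of the TAIR10.1 RefSeq annotation, read 5′ to 3′ on the coding strand.
PHYA: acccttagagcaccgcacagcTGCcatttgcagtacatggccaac
PHYB: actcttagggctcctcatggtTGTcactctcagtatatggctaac
PHYC: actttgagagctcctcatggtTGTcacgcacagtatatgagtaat
PHYD: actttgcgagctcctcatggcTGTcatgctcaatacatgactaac
PHYE: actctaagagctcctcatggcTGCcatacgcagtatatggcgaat
PHOT1 LOV stretch 1: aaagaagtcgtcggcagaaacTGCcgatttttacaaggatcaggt
PHOT1 LOV stretch 2: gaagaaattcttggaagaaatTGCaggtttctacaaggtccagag
PHOT2 LOV stretch 1: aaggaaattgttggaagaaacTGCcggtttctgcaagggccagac
PHOT2 LOV stretch 2: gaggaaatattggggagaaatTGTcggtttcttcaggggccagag
Among the 5 phytochrome stretches, the share of identical bases ran from 60% for PHYA and PHYC to 82.2% for PHYB and PHYC and for PHYC and PHYD. PHYB and PHYD, the closest pair over the whole transcript, shared 35 of these 45 bases, or 77.8%. The first LOV stretch of PHOT2 was closer to the second of PHOT1 (82.2%) than to the first of PHOT1 (73.3%). Over whole transcripts, PHYB and PHYD were 81.1% identical along 73% of PHYB, CRY1 and CRY2 70.3% along 32.5% of CRY1, and PHOT1 and PHOT2 68.5% along 56.8% of PHOT1, while the search found no other locus like UVR8. How the authors assigned reads that match several copies is not given, nor is whether strand was used, so the values of close copies and overlapping genes are uncertain. The exons of PHOT2 share 2760 bases, 42.3% of the transcript compared, with AT5G58150, which lies on the opposite strand and was listed at 0 to 0.02 FPKM. Those of PHYE share 60 bases with AT4G18140 on the same strand.

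Levels are FPKM, the unit of the deposited table, that is, fragment counts scaled for gene length and library size. FPKM summed to between 744698 and 1162160 per library, and between 17791 and 18367 genes reached 1 FPKM. No read numbers come with these values, so the counting error behind them is unknown. All 4 green-tissue and all 5 root markers were above 0 in each of the 18 libraries. Of the targeted genes, PIF4 averaged 9.32 ± 1.61 FPKM in pif4 at 29 °C and 17.4 ± 1.72 FPKM in WT at 29 °C (SD, n = 3 each), and at 22 °C 7.05 ± 0.804 FPKM in pif4 and 10.06 ± 1.09 FPKM in WT. BBX18 averaged 18.0 ± 2.57 FPKM in bbx18 bbx23 at 22 °C and 28.9 ± 1.37 FPKM in WT at 22 °C (SD, n = 3 each), without overlap. At 29 °C it spread from 7.12 to 51.3 FPKM in bbx18 bbx23 and from 9.43 to 64.4 FPKM in WT, overlapping, with replicate 1 the lowest and replicate 2 the highest in both. BBX23 was listed at 0 everywhere. The mutants therefore kept reads of BBX18 and PIF4, and a value per gene does not tell a disrupted transcript from an intact one.

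Averaged over the 18 libraries, UVR8 stood highest among the receptors at 61.6 FPKM, followed by CRY1 at 59.0, CRY2 at 42.0, PHYA at 40.8, PHOT1 at 40.6, PHOT2 at 31.0 and PHYB at 17.7 FPKM. PHYC, PHYD and PHYE were low, at 5.99, 4.53 and 4.31 FPKM. FPKM is per length, so setting these levels beside each other rests on the gene lengths used, which are not given. For PHOT2 the exons of the TAIR10.1 RefSeq reference cover 7121 bases and the coding sequence 2748, so its place in particular is uncertain. The order at the top depended on temperature. At 29 °C UVR8 was the highest receptor in all 3 genotypes, without overlap with the next, and at 22 °C CRY1 was, again without overlap with the next. PHYB lay above PHYC, and below PHOT2, without overlap in all 6 groups. PHYD and PHYE overlapped in each group.

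**Figure D1:**
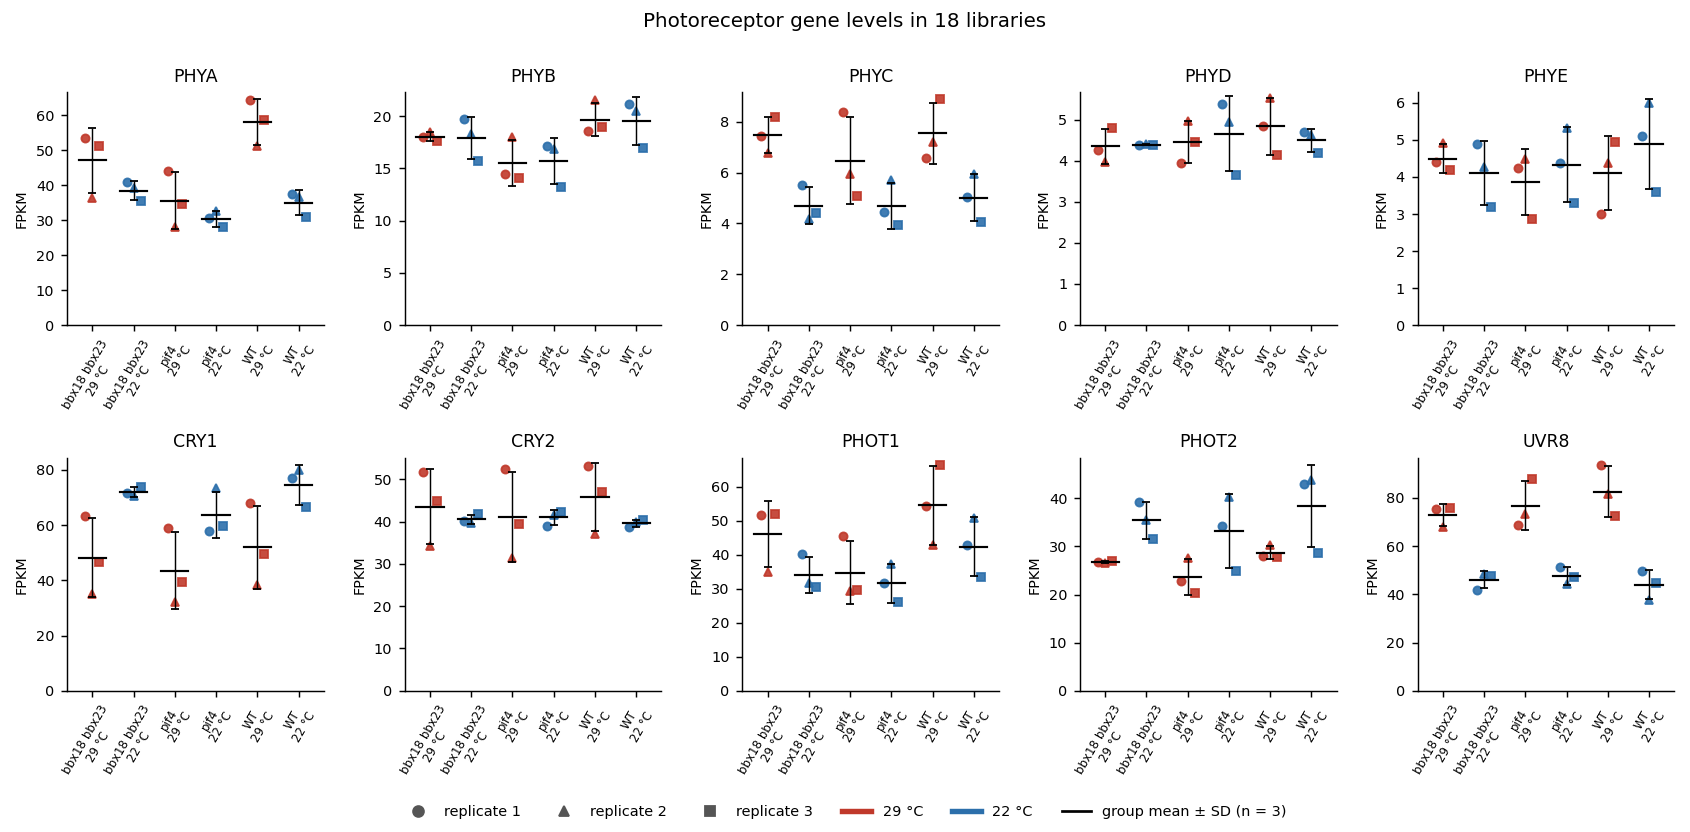
Level of each photoreceptor gene (FPKM, linear axes from 0) in the 18 libraries, by genotype and temperature. Points are libraries, with a marker for each replicate number, and bars are the group mean ± SD (n = 3). UVR8 lies between 67.8 and 93.6 FPKM at 29 °C and between 37.5 and 51.4 FPKM at 22 °C, whereas PHYB and PHYD overlap between the temperatures.

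To ask which receptors answer to warmth, the 29 °C groups were compared with the 22 °C groups of the same genotype. Genes that reached 1 FPKM in 3 or more libraries were tested, 19116 in all and among them all 10 receptors, and the words rose and fell are kept for a limma adjusted p under 0.05. Differences are on the log2 scale of FPKM + 1, given with their standard error, and this scale understates changes of low genes. Whether the replicates come from separate plants is not given, so p-values measure the spread between these samples only. In bulk seedlings, fewer cells of a type and less RNA per cell cannot be told apart. In bbx18 bbx23, 2 of the 10 receptors rose, PHYC and UVR8. In pif4, 1 rose, UVR8, and in WT 2 rose, PHYA and UVR8. Among all genes, 5.52% rose in bbx18 bbx23, 4.67% in pif4 and 5.63% in WT.

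With all 18 libraries and no replicate block, no receptor fell by the limma test in any of the 3 genotypes. Among all genes, 8.06%, 8.49% and 8.55% fell in bbx18 bbx23, pif4 and WT. CRY1 and PHOT2 fell in some fits that left out libraries, as given below. Counted in either direction, 13.6%, 13.2% and 14.2% of all genes were called in the same order. At an unadjusted p under 0.05, 4, 4 and 5 of the 10 receptors passed in these genotypes, beside 27.1%, 26.7% and 26.8% of all genes. The median difference of the 10 receptors was 0.10 in bbx18 bbx23, -0.02 in pif4 and 0.14 in WT, against medians over all genes of 0.00104, -0.03 and -0.01. With 10 members, these counts are near the background, and what follows concerns single genes.

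UVR8 rose in all 3 genotypes. In bbx18 bbx23 it had 75.4, 67.8 and 75.6 FPKM at 29 °C, against 41.9, 48.5 and 47.6 FPKM at 22 °C. In pif4 it had 68.8, 73.3 and 88.0 FPKM at 29 °C, against 51.4, 44.3 and 47.2 FPKM at 22 °C. In WT it had 93.6, 81.5 and 72.5 FPKM at 29 °C, against 49.7, 37.5 and 44.7 FPKM at 22 °C. All 9 libraries at 29 °C were higher than all 9 at 22 °C, the lowest of the 29 °C libraries being a bbx18 bbx23 one and the highest of the 22 °C libraries a pif4 one. The log2 difference was 0.66 ± 0.13 in bbx18 bbx23 (limma adjusted p = 0.00354), 0.67 ± 0.13 in pif4 (0.00312) and 0.89 ± 0.13 in WT (0.000272), and each call held in all 15 alternatives run for it. The rise was not shown to differ between genotypes: bbx18 bbx23 minus WT was -0.24, with a 95% interval of -0.64 to 0.16, and pif4 minus WT was -0.22, with an interval of -0.62 to 0.17. Within each temperature the 3 genotypes overlapped.

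PHYA, the light-labile phytochrome that senses far-red and very weak light, rose in WT. It had 64.5, 51.2 and 58.5 FPKM in WT at 29 °C, against 37.4, 36.8 and 30.8 FPKM in WT at 22 °C. The groups did not overlap, the difference was 0.71 ± 0.17 (limma adjusted p = 0.00852), and the call held in all 15 alternatives. In bbx18 bbx23 PHYA had 53.5, 36.5 and 51.3 FPKM at 29 °C, against 40.9, 39.1 and 35.5 FPKM at 22 °C. In pif4 it had 44.1, 28.1 and 34.7 FPKM at 29 °C, against 30.7, 32.6 and 28.0 FPKM at 22 °C. In both mutants replicate 2 at 29 °C lay within the 22 °C range, and the groups overlapped. The differences there, 0.27 ± 0.17 and 0.20 ± 0.17, had limma adjusted p of 0.329 and 0.496. A call in WT and none in the mutants does not show that the responses differ. The test of that difference gave -0.44 ± 0.24 for bbx18 bbx23 minus WT and -0.51 ± 0.24 for pif4 minus WT, both with an adjusted p of 1.

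The other phytochromes form the light-stable group, in which PHYB is the main red-light receptor and PHYC, PHYD and PHYE have smaller, partly shared roles. PHYC had 7.46, 6.78 and 8.21 FPKM in bbx18 bbx23 at 29 °C, against 5.52, 4.17 and 4.42 FPKM in bbx18 bbx23 at 22 °C. These did not overlap, and PHYC rose by 0.58 ± 0.18 (limma adjusted p = 0.0406). The call rested on most single libraries: leaving out replicate 2 or 3 of bbx18 bbx23 at 22 °C, or 1, 2 or 3 at 29 °C, gave 0.51, 0.54, 0.58, 0.64 and 0.52, with adjusted p of 0.15, 0.109, 0.0861, 0.0588 and 0.149. It was also lost with no filter on low values (limma adjusted p = 0.0587). In pif4 PHYC had 8.37, 5.97 and 5.07 FPKM at 29 °C, against 4.45, 5.71 and 3.96 FPKM at 22 °C, and the groups overlapped. In WT it had 6.58, 7.19 and 8.90 FPKM at 29 °C, against 5.03, 5.95 and 4.08 FPKM at 22 °C, and they did not. The differences were 0.38 in pif4 and 0.51 in WT, with limma adjusted p of 0.186 and 0.0676. Without replicate 1 at 29 °C in all genotypes the WT difference was 0.59 (limma adjusted p = 0.0415).

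PHYB did not pass the test in any genotype. It had 18.0, 18.5 and 17.6 FPKM in bbx18 bbx23 at 29 °C, against 19.7, 18.3 and 15.7 FPKM in bbx18 bbx23 at 22 °C. In pif4 it had 14.5, 18.0 and 14.0 FPKM at 29 °C, against 17.1, 16.9 and 13.2 FPKM at 22 °C. In WT it had 18.6, 21.5 and 18.9 FPKM at 29 °C, against 21.2, 20.5 and 16.9 FPKM at 22 °C. The 2 temperatures overlapped in each genotype, and the 95% intervals of the difference ran from -0.27 to 0.30 in bbx18 bbx23, from -0.30 to 0.26 in pif4 and from -0.27 to 0.30 in WT. PHYD and PHYE overlapped too, with differences between -0.05 and 0.08 for PHYD and between -0.21 and 0.12 for PHYE, and limma adjusted p of at least 0.581. PHYD spanned 3.65 to 5.53 FPKM over the 18 libraries, and PHYE 2.86 to 6.0 FPKM.

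CRY1, the cryptochrome that is stable in light, was lower at 29 °C than at 22 °C in the means of all 3 genotypes without passing the test. It had 63.1, 34.9 and 46.6 FPKM in bbx18 bbx23 at 29 °C, against 71.5, 70.6 and 73.9 FPKM in bbx18 bbx23 at 22 °C. In pif4 it had 58.8, 32.0 and 39.5 FPKM at 29 °C, against 57.7, 73.3 and 59.8 FPKM at 22 °C. In WT it had 68.1, 38.2 and 49.4 FPKM at 29 °C, against 76.97, 80.1 and 66.5 FPKM at 22 °C. Replicate 1 at 29 °C was the highest and replicate 2 the lowest in every genotype, and only in bbx18 bbx23 did the 2 temperatures not overlap. The differences were -0.61 ± 0.23 in bbx18 bbx23, -0.58 ± 0.23 in pif4 and -0.55 ± 0.23 in WT (limma adjusted p = 0.099, 0.121 and 0.142). Without replicate 1 at 29 °C in all genotypes they were -0.82, -0.81 and -0.76, with adjusted p of 0.00482, 0.00615 and 0.00745. Leaving out replicate 1 at 29 °C of bbx18 bbx23 alone, or of pif4 alone, gave the same -0.82 and -0.81 with adjusted p of 0.0404 and 0.0353. Without replicate 2 at 29 °C in all genotypes the values were -0.40, -0.38 and -0.35, with adjusted p of 0.228, 0.264 and 0.302.

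CRY2, which is degraded in blue light and promotes flowering, did not pass the test either. It had 51.7, 34.2 and 44.8 FPKM in bbx18 bbx23 at 29 °C, against 40.2, 39.7 and 41.8 FPKM in bbx18 bbx23 at 22 °C. In pif4 it spanned 31.3 to 52.5 FPKM at 29 °C and 39.1 to 42.3 FPKM at 22 °C, and in WT 37.2 to 53.2 FPKM at 29 °C and 38.8 to 40.4 FPKM at 22 °C. In every genotype the libraries at 29 °C fell on both sides of the narrow 22 °C range. The differences were 0.08, -0.03 and 0.19 (limma adjusted p = 0.814, 0.951 and 0.544).

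The phototropins moved apart in their means. PHOT1, the more light-sensitive receptor, had 51.8, 35.0 and 52.0 FPKM in bbx18 bbx23 at 29 °C, against 40.2, 31.7 and 30.6 FPKM in bbx18 bbx23 at 22 °C. It had 45.5, 29.3 and 29.6 FPKM in pif4 at 29 °C, against 31.6, 37.4 and 26.0 FPKM in pif4 at 22 °C. It had 54.4, 43.0 and 66.4 FPKM in WT at 29 °C, against 43.0, 50.8 and 33.4 FPKM in WT at 22 °C. The temperatures overlapped in each genotype, and the differences of 0.41, 0.12 and 0.36 had limma adjusted p of 0.25, 0.803 and 0.334. PHOT2, which takes over in strong light and drives chloroplast avoidance, had 26.9, 26.6 and 27.0 FPKM in bbx18 bbx23 at 29 °C, against 39.2, 35.5 and 31.6 FPKM in bbx18 bbx23 at 22 °C. It had 22.9, 27.6 and 20.3 FPKM in pif4 at 29 °C, against 34.2, 40.2 and 25.0 FPKM in pif4 at 22 °C. It had 28.0, 30.3 and 27.8 FPKM in WT at 29 °C, against 43.0, 43.8 and 28.7 FPKM in WT at 22 °C. Replicate 3 was the lowest library at 22 °C in each genotype, and the temperatures overlapped in pif4 and WT through that library. The differences were -0.38 in bbx18 bbx23, -0.46 in pif4 and -0.39 in WT (limma adjusted p = 0.171, 0.103 and 0.173). Without replicate 3 of pif4 at 22 °C the difference was -0.64 (limma adjusted p = 0.0291), and without replicate 3 of WT at 22 °C it was -0.58 (adjusted p = 0.0391).

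**Figure D2:**
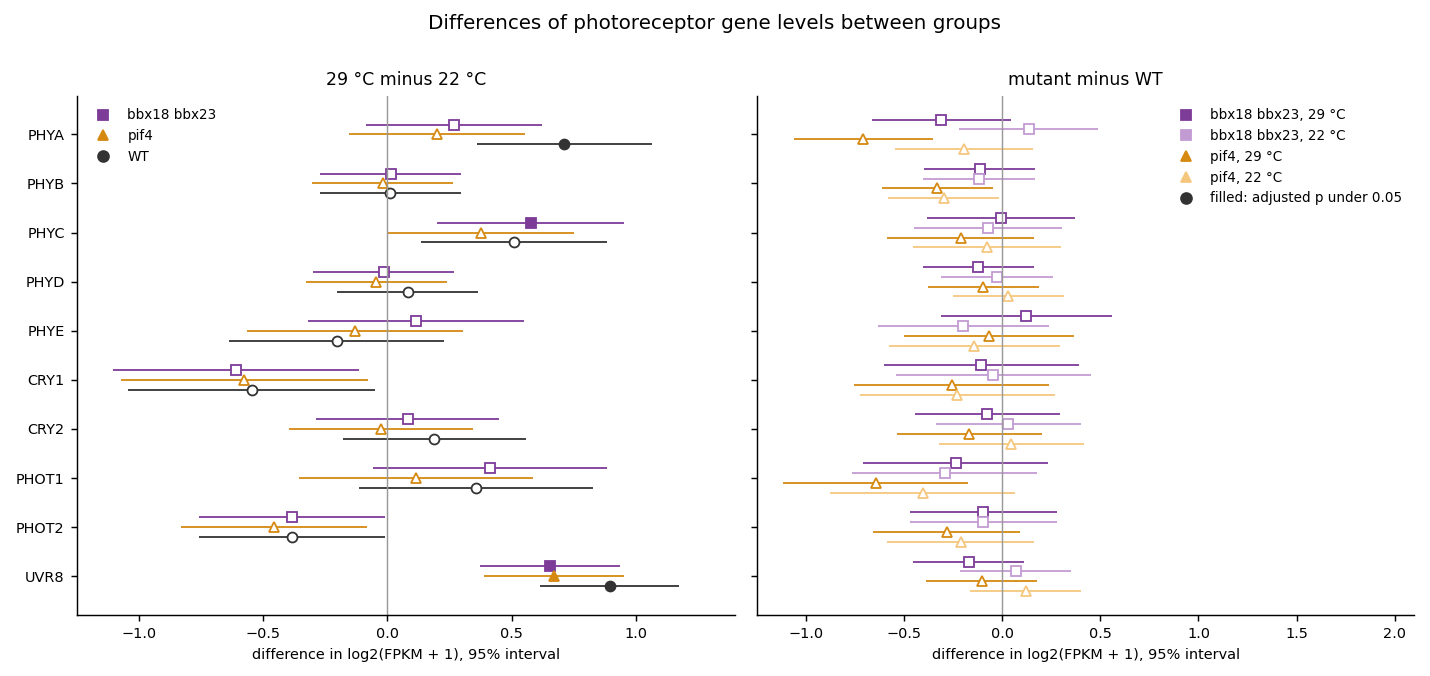
Differences of the 10 receptors on the log2(FPKM + 1) scale with their 95% intervals, for 29 °C minus 22 °C in each genotype (left) and for each mutant minus WT at each temperature (right). Filled markers have a limma adjusted p under 0.05, which holds for UVR8 in 3 genotypes, PHYC in bbx18 bbx23 and PHYA in WT, and for no gene on the right.

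Ratios within a library are free of the library's scaling, and the balance between paralogs was read in that way, as a description with no test. CRY1 over CRY2 was 1.22, 1.02 and 1.04 in bbx18 bbx23 at 29 °C, against 1.78, 1.78 and 1.77 at 22 °C. In pif4 it was 1.12, 1.02 and 0.999 at 29 °C, against 1.48, 1.76 and 1.41 at 22 °C. In WT it was 1.28, 1.03 and 1.05 at 29 °C, against 1.99, 2.01 and 1.65 at 22 °C. All 9 ratios at 29 °C were thus lower than all 9 at 22 °C, although CRY1 alone overlapped in pif4 and WT. PHOT1 over PHOT2 was 1.93, 1.32 and 1.93 in bbx18 bbx23 at 29 °C, against 1.03, 0.892 and 0.969 at 22 °C. In pif4 it was 1.99, 1.06 and 1.46 at 29 °C, against 0.924, 0.93 and 1.04 at 22 °C. In WT it was 1.94, 1.42 and 2.39 at 29 °C, against 1.00, 1.16 and 1.17 at 22 °C. Within each genotype the ratio was higher at 29 °C without overlap. How many pairs of other genes separate the temperatures in this way was not counted, so no background stands beside these ratios. Deviations of CRY1 and CRY2 from the group means at 29 °C correlated at a Pearson r of 0.98, and their ratio takes out spread that they share. A ratio sets the paralogs against each other and does not tell which of them differed. With all libraries and no replicate block, none of the 4 genes passed the limma test singly. PHYA made up 51.6 to 61.1% of the summed FPKM of the 5 phytochromes in bbx18 bbx23 at 29 °C, against 54.2 to 56.1% at 22 °C, and 45.6 to 58.7% in pif4 at 29 °C, against 49.5 to 53.8% at 22 °C. In WT it made up 57.0 to 66.1% at 29 °C, against 49.8 to 51.7% at 22 °C, the only genotype without overlap.

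**Figure D3:**
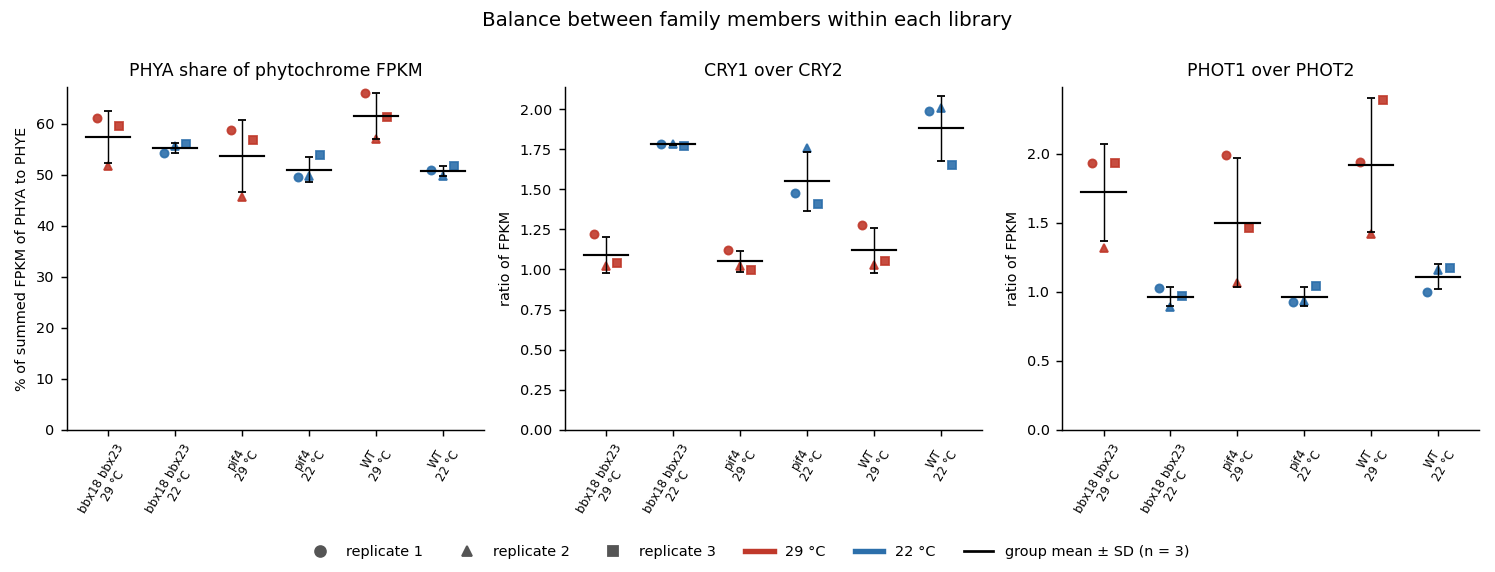
Share of PHYA in the summed phytochrome FPKM (%), and the ratios CRY1 over CRY2 and PHOT1 over PHOT2, in each library (axes from 0). Points are libraries and bars the group mean ± SD (n = 3). CRY1 over CRY2 lies between 0.999 and 1.28 at 29 °C and between 1.41 and 2.01 at 22 °C.

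The mutants were set against WT at each temperature, to ask whether the B-box proteins or PIF4 bear on the receptor transcripts. Without a replicate block, no receptor was called by limma in bbx18 bbx23 minus WT at 29 °C or 22 °C, in pif4 minus WT at 29 °C or 22 °C, or in the difference of warm responses between either mutant and WT. Among all genes 0.0157% and 0.0262% were called in bbx18 bbx23 minus WT at 29 °C and 22 °C, 0.136% and 0.0209% in pif4 minus WT, and 0% and 0.0157% in the differences of warm responses of bbx18 bbx23 and pif4. At an unadjusted p under 0.05, 0 and 0 receptors passed in bbx18 bbx23 minus WT at 29 °C and 22 °C, 3 and 1 in pif4 minus WT, and 0 and 1 in the differences of warm responses. The numbers of all genes passing in that way were 211 and 249, 630 and 619, and 133 and 248. When replicate number was fitted as a block within temperature, 13 genes in place of 4 were called in pif4 minus WT at 22 °C, where same-numbered libraries deviated together.

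The 3 receptors lower in pif4 than in WT at 29 °C by the unadjusted limma p were PHYA, PHYB and PHOT1, whose values are given above. For PHYA the difference was -0.71 ± 0.17, all 3 pif4 libraries lay below all 3 WT libraries, and the limma adjusted p was 0.276. For PHYB it was -0.33 ± 0.13, the libraries again did not overlap, and the adjusted p was 1. For PHOT1 it was -0.64 ± 0.22, the libraries overlapped, and the adjusted p was 1. At 22 °C the same differences were -0.19 for PHYA, -0.30 for PHYB and -0.40 for PHOT1, with adjusted p of 0.987 each and overlap in each. A lack of overlap with WT at 29 °C was not particular to these genes or to pif4. PHYB in bbx18 bbx23 (difference -0.12) and PHOT2 in bbx18 bbx23 (-0.10) and pif4 (-0.28) also lay below WT without overlap. How many of all genes did so was not counted. The PHYA difference at 29 °C and the PHYA rise in WT share the WT libraries at 29 °C, so they are not separate evidence. Across the 10 receptors the median of pif4 minus WT was -0.23 at 29 °C and -0.17 at 22 °C, beside 0.01 and 0.04 over all genes, and that of bbx18 bbx23 minus WT was -0.11 and -0.06, beside 0.02 and 0.02.

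At 29 °C the libraries also differed by replicate number in the same way in all 3 genotypes. Replicate 2 was lower than replicate 1 in CRY1 by a log2 difference of -0.84 in bbx18 bbx23, -0.86 in pif4 and -0.82 in WT, and in CRY2 by -0.58, -0.73 and -0.50. PHYA followed with -0.54, -0.64 and -0.33, and PHOT1 with -0.55, -0.62 and -0.33. These 4 receptors thus moved together, whereas PHYB, PHYD, PHOT2 and UVR8 differed by 0.30 or less in size. PHYC differed by -0.12 in bbx18 bbx23, -0.43 in pif4 and 0.11 in WT, and PHYE by 0.13, 0.07 and 0.42. CRY1 and CRY2 were past 0.5 in 1 direction in every genotype, 2 of 10 receptors beside 10.4% of all genes. At 22 °C no receptor was, beside 0.377% of all genes. There the libraries split by another number: replicate 3 was the lowest in all 3 genotypes for 6 of the 10 receptors, PHYA, PHYB, PHYD, PHYE, PHOT1 and PHOT2, beside 2189 of all 19116 genes. At 29 °C replicate 2 was the lowest in all 3 for PHYA, CRY1, CRY2 and PHOT1, beside 2386 of all genes. The clock genes, transcripts that cycle over the day, also differed between replicates 1 and 2 at 29 °C, but not all in 1 direction. Replicate 2 minus 1 was 3.53, 3.54 and 3.38 in PRR9, 2.01, 2.75 and 2.42 in GI, and 1.07, 1.03 and 1.31 in CCA1. ELF3 went the other way with -0.74, -0.70 and -0.56, and so did TOC1 with -0.46, -0.49 and -0.48. The rest of the clock list was higher in replicate 2 in every genotype. At 22 °C the same differences of PRR9, GI and CCA1 ran from -0.85 to 0.55. Deviations from the group means were correlated (Pearson r) over the 9 libraries of each temperature, which share their scaling. At 29 °C r was 0.93 between PHYA and CRY1, 0.98 between PHYA and CRY2 and 0.98 between CRY1 and CRY2. At 22 °C the values of these pairs were 0.63, -0.54 and 0.21. PHOT1 and PHYA gave 0.86 at 29 °C and 0.90 at 22 °C, PHOT1 and CRY1 0.775 and 0.71, and PHOT1 and CRY2 0.85 and -0.30. Other receptors moved together at 22 °C. There PHYA gave 0.94 with PHYB, 0.96 with PHYE and 0.96 with PHOT2, against -0.71, -0.34 and -0.44 at 29 °C. What set these libraries apart was not tested. The 10 clock genes were above 0 in all libraries and summed to 269 to 422 FPKM in bbx18 bbx23 at 29 °C, against 436 to 494 at 22 °C, to 258 to 387 in pif4 at 29 °C, against 352 to 489 at 22 °C, and to 244 to 381 in WT at 29 °C, against 395 to 493 at 22 °C. LHY had the largest share of these sums, averaging 161 FPKM in bbx18 bbx23 at 29 °C and 326 FPKM at 22 °C. The sums do not describe the list gene by gene. Its median log2 difference, 29 °C minus 22 °C, was 1.14 in bbx18 bbx23, 1.22 in pif4 and 1.45 in WT.

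**Figure D4:**
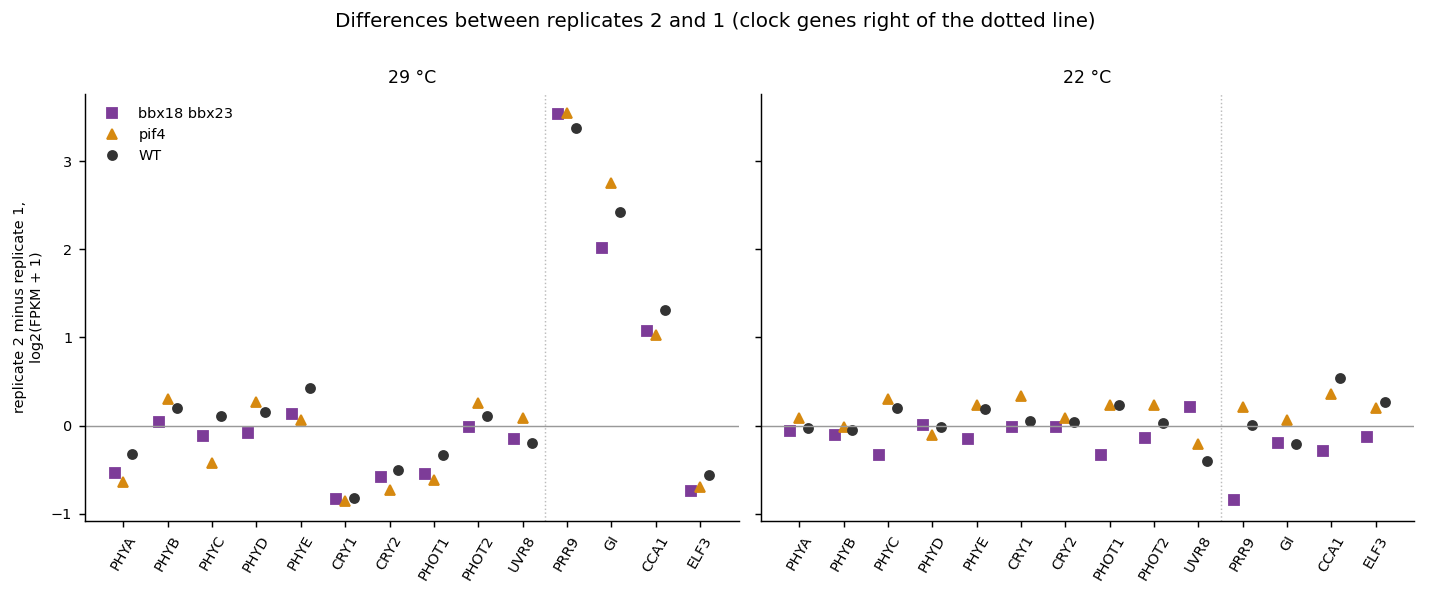
Difference between replicates 2 and 1 on the log2(FPKM + 1) scale in each genotype at 29 °C (left) and 22 °C (right), for the 10 receptors and, right of the dotted line, 4 clock genes. At 29 °C CRY1 lies between -0.86 and -0.82 and PRR9 between 3.38 and 3.54, while at 22 °C the receptors lie between -0.40 and 0.34.

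Markers of green tissue moved with temperature as well. The 4 genes, led by the small subunit of Rubisco RBCS1A, summed to 14086 to 16446 FPKM in bbx18 bbx23 at 29 °C, against 34037 to 37211 at 22 °C. The sums were 13409 to 20363 FPKM in pif4 at 29 °C, against 29046 to 41509 at 22 °C, and 14498 to 23624 FPKM in WT at 29 °C, against 29884 to 48334 at 22 °C. RBCS1A, the carbonic anhydrase CA1 and the glutamine synthetase GS2 fell in every genotype, 3 of the 4 markers. Of the 5 root markers 0 passed the limma test in any genotype, with 1, 0 and 0 at an unadjusted p under 0.05 in bbx18 bbx23, pif4 and WT, and their sums overlapped between temperatures in each. The root sums were mostly PYK10, which averaged 1588 FPKM in WT at 29 °C and 1744 FPKM at 22 °C. In the clock list LHY fell and PRR5, TOC1, LUX, ELF4 and ELF3 rose in all 3 genotypes, and PRR7 rose in pif4. What part the green-tissue and clock shifts have in the rise of UVR8, PHYA and PHYC was not tested.

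Genes with the most similar course over the 18 libraries were sought among all 19116 by the Pearson correlation of log2(FPKM + 1), as a description of these libraries, which share scaling and the temperature contrast. UVR8 ran closest with VEP1 (AT4G24220, r = 0.98), AT3G01472 (0.98) and the homeobox gene HB-1 (AT3G01470, 0.98). AT3G01472 and HB-1 have neighbouring identifiers and the same r of 0.9784, so they may not be separate measurements. CRY1 ran closest with TPS9 (AT1G23870, 0.97), AT1G19110 (0.96) and AP4.3A (AT2G32800, 0.96), and CRY2 with SYP23 (AT4G17730, 0.97), AT1G75370 (0.96) and AT2G07180 (0.95). EMB3142 (AT5G51200) led the list of both PHOT1 (0.95) and PHYA (0.92), followed by AT2G34300 (0.95) and AT2G34170 (0.94) for PHOT1 and by AT3G21330 (0.90) and FRA3 (AT1G65580, 0.89) for PHYA. PHOT2 ran with WSIP2 (AT3G15880, 0.94), AT3G24180 (0.94) and ftsh9 (AT5G58870, 0.93), and PHYC with AT5G61990 (0.96), AT2G25760 (0.95) and AT1G07650 (0.94). The levels of PHYE, PHYB and PHYD had looser matches, led by AT5G60170 (0.90), EER4 (AT1G17440, 0.86) and AT3G52520 (0.79), then AT3G44630 (0.89) and AT1G61190 (0.86) for PHYE, ATML1 (AT4G21750, 0.85) and AT1G16270 (0.85) for PHYB, and NSL1 (AT1G28380, 0.78) and AT4G02940 (0.78) for PHYD. Among the receptors themselves the closest pair was PHYA and PHOT1 (r = 0.86), and PHOT2 and UVR8 ran most strongly against each other (r = -0.71).

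The 250 bases before the annotated start are shown for the 2 receptors that rose in WT, UVR8 and PHYA, and for PHYB, which did not pass the test and carries the G-box, the letters CACGTG that PIF4 is known to bind. The capitals mark matches to the motifs searched. The windows and their positions are those of the TAIR10.1 RefSeq reference, read 5′ to 3′ towards the gene, and the build behind the FPKM may be another.
UVR8 upstream window, chr5:25559500-25559749, minus strand: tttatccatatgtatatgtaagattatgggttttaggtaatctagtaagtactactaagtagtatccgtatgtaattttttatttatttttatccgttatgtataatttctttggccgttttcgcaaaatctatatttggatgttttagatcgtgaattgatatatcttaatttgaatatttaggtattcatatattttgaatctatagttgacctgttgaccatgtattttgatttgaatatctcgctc
PHYA upstream window, chr1:3100820-3101069, minus strand: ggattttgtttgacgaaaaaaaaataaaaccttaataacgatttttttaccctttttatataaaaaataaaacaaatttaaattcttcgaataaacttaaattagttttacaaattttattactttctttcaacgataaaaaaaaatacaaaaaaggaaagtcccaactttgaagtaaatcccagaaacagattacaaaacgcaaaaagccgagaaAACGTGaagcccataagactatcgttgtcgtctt
PHYB upstream window, chr2:8139506-8139755, plus strand: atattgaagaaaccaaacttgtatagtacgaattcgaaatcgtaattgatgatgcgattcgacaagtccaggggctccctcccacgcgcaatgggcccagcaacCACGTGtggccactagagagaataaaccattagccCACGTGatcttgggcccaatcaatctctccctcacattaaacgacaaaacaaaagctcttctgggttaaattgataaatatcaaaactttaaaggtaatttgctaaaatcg
Both strands of the 250 bases were searched for 5 motifs in the 10 receptors and in 27443 genes in all. The G-box occurred in PHYB, 141 and 106 bases before the start, and in PHYD, beside 6.49% of all windows. The related letters CACGTT occurred in PHYA, 29 bases before the start and on the other strand, and in PHYD, beside 7.54% of all windows. The evening element AAAATATCT, the CCA1 site AAAAATCT and the heat shock element GAANNTTC were in no receptor window, beside 2.36%, 6.69% and 9.55% of all windows. A match describes these letters only, and the absence of one says nothing about binding elsewhere. The warm responses of PHYB and PHYD, the G-box genes among the receptors, lay between -0.05 and 0.08. Their pif4 minus WT differences at 29 °C were -0.33 for PHYB and -0.10 for PHYD, and at 22 °C -0.30 and 0.03, none of them called. Whether PIF4 acts through these letters was not tested.

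Other light genes were read from 7 lists with 52 genes, of which 49 were tested. Most of the lists hold genes that act with the receptors, and another holds the LOV F-box receptors and CRY3. In bbx18 bbx23, 3 rose and 3 fell with warmth, in pif4 1 rose and 5 fell, and in WT 1 rose and 5 fell, beside 13.6%, 13.2% and 14.2% of all genes called in either direction. At an unadjusted p under 0.05 by limma, 12, 10 and 12 of the 49 passed, beside 27.1%, 26.7% and 26.8% of all genes, so these counts are near the background. Their median difference was -0.04, -0.09 and -0.11 in these genotypes, beside 0.00104, -0.03 and -0.01 over all genes. None was called by limma in either mutant against WT at 29 °C or 22 °C. At an unadjusted p under 0.05 by limma, 0 and 0 of the 49 passed in bbx18 bbx23 minus WT at 29 °C and 22 °C, and 2 and 1 in pif4 minus WT.

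Of the 9 phototropin partners, all tested, 3 were called in bbx18 bbx23, 4 in pif4 and 4 in WT, beside the same 13.6%, 13.2% and 14.2% of all genes. In each genotype 1 of them rose, and 2 fell in bbx18 bbx23, 3 in pif4 and 3 in WT. NPH3, the adaptor through which phototropins cause bending, averaged 20.1 ± 0.873 FPKM in bbx18 bbx23 at 29 °C and 12.4 ± 0.367 FPKM at 22 °C (SD, n = 3 each). It averaged 18.3 ± 1.80 FPKM in pif4 at 29 °C and 11.4 ± 0.384 FPKM at 22 °C, and 22.7 ± 1.35 FPKM in WT at 29 °C and 12.95 ± 0.75 FPKM at 22 °C (SD, n = 3 each). It rose by 0.66, 0.63 and 0.76 (limma adjusted p = 0.000328, 0.0005 and 8.16e-05). RPT2, a light-induced member of the NPH3 family that acts in bending under stronger light, went the other way. It averaged 224 ± 18.5 FPKM in bbx18 bbx23 at 29 °C and 419 ± 19.2 FPKM at 22 °C, 188 ± 26.6 FPKM in pif4 at 29 °C and 350 ± 23.9 FPKM at 22 °C, and 226 ± 17 FPKM in WT at 29 °C and 427 ± 34.9 FPKM at 22 °C (SD, n = 3 each). Its differences were -0.90, -0.90 and -0.91 (limma adjusted p = 0.00013, 0.000141 and 9.91e-05). The NPH3 and RPT2 calls held in all 15 alternatives of each genotype.

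The less stable calls of the phototropin list concerned chloroplast movement and another NPH3 relative. JAC1, needed for the chloroplast accumulation response, fell by 0.75 in pif4 (limma adjusted p = 0.0401) and by 0.93 in WT (0.0113), and its difference in bbx18 bbx23 was -0.63 (0.0809). The pif4 call was lost without any one library other than replicate 1 at 29 °C (values -0.83 to -0.59, adjusted p 0.0587 to 0.164), and also with no filter (0.0583), with size factors (0.0524) and with only the libraries compared (0.0588). The WT call was lost when replicate 2 at 22 °C, or replicate 1 or 2 at 29 °C, was left out (-0.81 to -0.75, adjusted p 0.0517 to 0.0624), or only the libraries compared were fitted (0.081). AT5G67385, annotated as an NPH3 family protein, fell by 0.55, 0.62 and 0.58 in bbx18 bbx23, pif4 and WT (limma adjusted p = 0.0404, 0.0222 and 0.0287). Its call was lost without any one library in bbx18 bbx23 (-0.63 to -0.46, adjusted p 0.0557 to 0.143), and without replicates 1 or 2 at 22 °C or 2 or 3 at 29 °C in pif4 (-0.62 to -0.49, adjusted p 0.0652 to 0.11). In WT it was lost without replicates 1 or 2 at either temperature (-0.60 to -0.45, adjusted p 0.0596 to 0.132). With only the libraries compared it was lost in pif4 and WT (limma adjusted p = 0.116 and 0.0808).

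In the synthesis of the phytochrome bilin, 3 of 5 listed genes were tested. HO2, of the heme oxygenase family, fell in all 3 genotypes. It averaged 8.20 ± 0.137 FPKM in bbx18 bbx23 at 29 °C and 14.2 ± 3.36 FPKM at 22 °C, 8.93 ± 1.39 FPKM in pif4 at 29 °C and 14.1 ± 1.85 FPKM at 22 °C, and 9.11 ± 1.88 FPKM in WT at 29 °C and 16.5 ± 2.04 FPKM at 22 °C (SD, n = 3 each). Its differences were -0.70, -0.61 and -0.80 (limma adjusted p = 0.0128, 0.0284 and 0.00487). The bbx18 bbx23 call was lost without replicate 1 at 22 °C (-0.53, limma adjusted p = 0.0724), and the pif4 call without replicates 1 or 2 at 22 °C or 2 or 3 at 29 °C (-0.63 to -0.49, adjusted p 0.0578 to 0.12) or with only the libraries compared (0.0782). HY1, the main heme oxygenase of this pathway, fell by 0.42 in pif4 (limma adjusted p = 0.0455), a call lost without any one library other than replicate 1 at 29 °C (-0.45 to -0.35, adjusted p 0.0935 to 0.159), with size factors (0.0607), with no variance trend (0.0509) and with only the libraries compared (0.167). Its differences in bbx18 bbx23 and WT were -0.11 and -0.41 (limma adjusted p = 0.657 and 0.0503). HY2, the bilin reductase that makes phytochromobilin, differed by -0.45, -0.45 and -0.68 (limma adjusted p = 0.222, 0.227 and 0.0615).

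Of the 14 phytochrome transport and partner genes, 1 was called in WT, beside 14.2% of all genes, and 0 in the mutants, with 4, 2 and 2 of the 14 at an unadjusted p under 0.05 by limma in bbx18 bbx23, pif4 and WT. AT1G18810, annotated as phytochrome kinase substrate-like, fell by 0.98 in WT (limma adjusted p = 0.0478), a call lost without replicates 1 or 2 of WT at either temperature (-0.99 to -0.76, adjusted p 0.0956 to 0.176), with a pseudocount of 0.1 (0.0603), with no filter (0.076), with size factors (0.058) and with only the libraries compared (0.0674). None of the 9 COP1, SPA and DET1 genes, of the 3 tested LOV F-box and CRY3 genes or of the 4 genes of the UVR8 list (RUP1, RUP2, HY5 and HYH) was called by limma in any warm response. At an unadjusted p under 0.05, 1 of the LOV F-box and CRY3 genes passed in each genotype and 0 of the others. RUP2, a repressor of UVR8, differed by -1.01, -0.99 and -0.95, but its standard error was 0.55 and its limma adjusted p 0.251, 0.27 and 0.288. Of the 7 cryptochrome partners, 2 genes annotated as protein kinases rose in bbx18 bbx23, AT3G13670 by 0.33 (limma adjusted p = 0.0418) and AT2G25760 by 0.47 (0.0425). The AT2G25760 call was lost without any one library (0.43 to 0.54, adjusted p 0.0554 to 0.124), with no filter (0.0514) and with a replicate block (0.0511). The call of AT3G13670 was lost without any one other than replicate 1 at 29 °C (0.30 to 0.35, adjusted p 0.0691 to 0.154), and so it was with no variance trend (0.0502) and with only the libraries compared (0.0731).

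**Figure D5:**
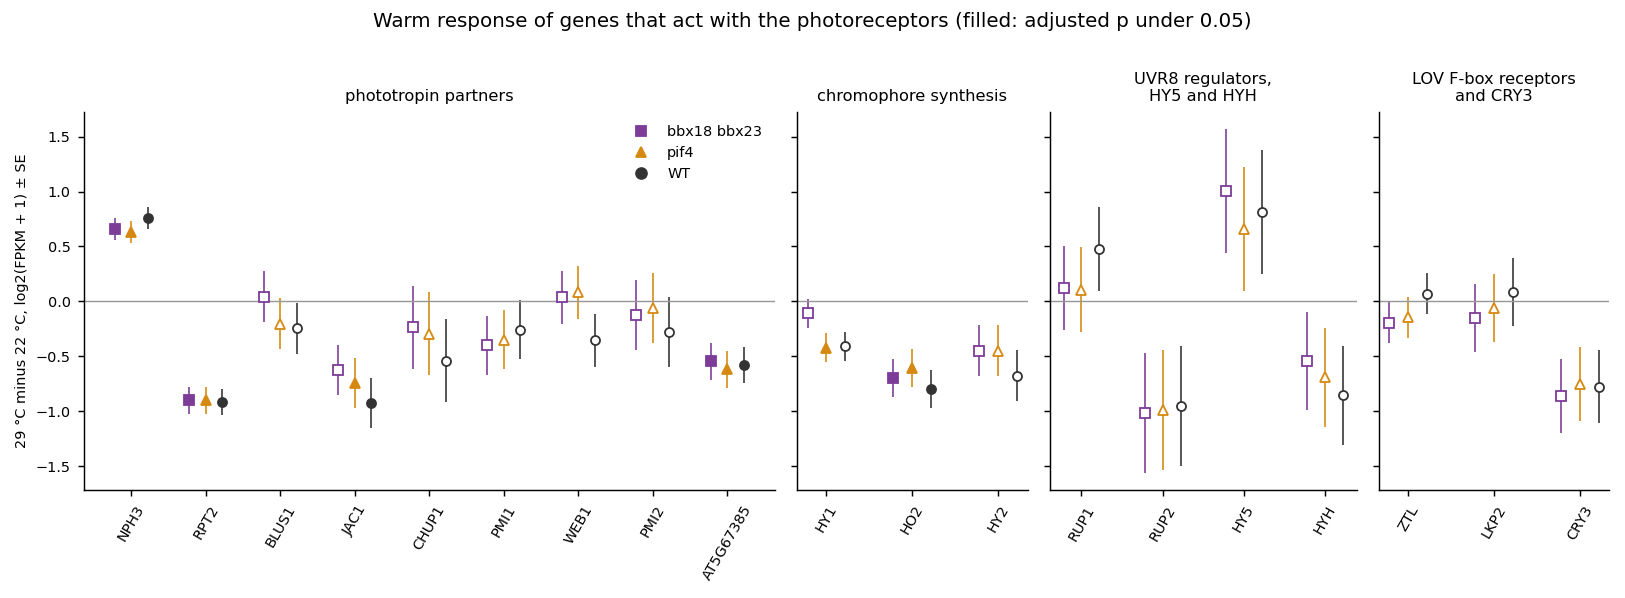
Warm response, 29 °C minus 22 °C on the log2(FPKM + 1) scale with its standard error, of 19 other light genes, by genotype. They are genes that act with the photoreceptors and the tested genes of the LOV F-box receptor and CRY3 list. Filled markers have a limma adjusted p under 0.05. NPH3 stands at 0.63 to 0.76 and RPT2 at -0.91 to -0.90 in the 3 genotypes, while HY5 and RUP2 have wide errors and no call.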

How the data were processed

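Total RNA was extracted with Trizol and libraries were made with a TruSeq kit, per the labels' protocols. The authors deposited FPKM per gene for 18 libraries, and no column was left unused (0 unused sample columns). The submitters' processing notes name Bowtie 0.12.2 and the build mm8, a mouse build. The genome, annotation and counting rule behind the FPKM are, like the read numbers, not given in the sources used here, so the depth is unknown and no count test was run. Names, overlaps and sequences came from the TAIR10.1 RefSeq reference, which matched 32835 of 33602 IDs by locus, and transcripts were compared with blastn 2.17.0.

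The members, lists and tests were chosen with earlier results of these data known. log2(FPKM + 1) of genes with 1 FPKM in 3 libraries or more was fitted by group, using limma 3.58.1 under R 4.3.3 with the 18 libraries together (trend on, 9 contrasts, Benjamini-Hochberg adjustment over 19116 genes, threshold 0.05). The fit was tested on simulated data. Named genes were the 10 receptors, the 3 genes most correlated with each, up to 4 called genes of smallest p per list and warm response, the targeted genes and the markers. Some members of these lists that did not pass were added for their role after their values were seen. The phytochrome codon was found as PH, any residue, then CH, after PHGCH was not found in PHYA. The plots were made in Python 3.11.15 by matplotlib 3.10.9.

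Alternatives were a pseudocount of 0.1, no filter, size factors, no trend, only the libraries compared, each library left out, replicate 1 or 2 at 29 °C left out in all genotypes, and replicate number as a block, overall or within temperature. Replicate numbers are shared across groups but not stated to mark a shared batch. Same-numbered libraries deviated together in every pair for bbx18 bbx23 and WT at 29 °C (r = 0.702, 0.732 and 0.239) and for pif4 and WT at 22 °C (0.502, 0.491 and 0.604), and not for the other comparisons.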

Additional observations from a re-analysis of the deposited data

How the results depend on the processing

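Of 1740 alternatives for single genes 1636 kept their side of the threshold, 18 gained a call and 86 lost one. No difference called in either fit changed sign. Among uncalled differences 106 changed sign, 102 on leaving out libraries and 4 with size factors, to at most 0.18 in size. The 18 gained calls were of CRY1, PHOT2, PHYC and PHYA. With replicate number as a block within temperature, called receptors were 5 in bbx18 bbx23, 3 in pif4 and 5 in WT in place of 2, 1 and 2, and all called genes 4786, 4621 and 4731 in place of 2596, 2515 and 2711. For a warm response this block removes spread shared by replicate number that is part of its error. The added receptors were CRY1, which fell (limma adjusted p = 0.000447, 0.000702 and 0.000865 in bbx18 bbx23, pif4 and WT), PHOT2, which fell (0.0221, 0.00909 and 0.021), PHYA in bbx18 bbx23 (0.042) and PHYC in WT (0.0433). It also called PHYA in pif4 minus WT at 29 °C (-0.71, limma adjusted p = 0.00224), 1 receptor in place of 0, a comparison whose same-numbered libraries correlated at 0.467, 0.694 and -0.324. The replicate block over all libraries gave 2 called receptors in pif4, the added one being PHOT2, which fell (limma adjusted p = 0.0353), and no filter gave 1 in bbx18 bbx23. Leaving out 1 library, or replicate 1 or 2 at 29 °C in all genotypes, gave 1 to 3 called receptors in bbx18 bbx23, 1 to 2 in pif4 and 2 to 4 in WT. Only the libraries compared gave 1096 called genes in pif4 and 1289 in WT, and these omissions of libraries gave 1519 to 2824 in bbx18 bbx23 and 1524 to 2518 in pif4. For bbx18 bbx23 minus WT at 29 °C (3 genes), only the libraries compared gave 0 and the omissions 0 to 4, and at 22 °C (5 genes) 1 and 1 to 4. For pif4 minus WT at 29 °C (26 genes) these gave 6 and 13 to 29, and the block within temperature 47, and at 22 °C (4 genes) the block within temperature gave 13 and no filter 7. For the pif4 difference of warm responses (3 genes), a pseudocount of 0.1 gave 0, no filter 1, the replicate block 5, the block within temperature 8 and the omissions 0 to 6. Leaving out replicate 2 at 29 °C in all genotypes ended the calls of PHYC, AT1G18810, JAC1, AT5G67385, HY1, AT3G13670, AT2G25760 and, in pif4, HO2. The causes were not tested. FPKM without read numbers leaves the counting error of low genes such as PHYD and PHYE unknown.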
